A study of Mus musculus with 3 samples.

Results

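The semaphorins, the plexins and the neuropilins are a family of guidance ligands with their receptors, and their RNA was followed here through osteogenic culture of mouse bone marrow cells. The genes were taken by a symbol rule, as Sema3 to Sema7 genes, plexins A to D and the neuropilins Nrp1 and Nrp2. The family was chosen with earlier results of these data known. There were 31 of them among the 20279 genes with a named probe, namely 20 semaphorins, 9 plexins and 2 neuropilins. They were read by 39 probes, 1 each for 23 genes and 2 each for 8 genes. The study compared 3 groups of primary mesenchymal stem cells (MSCs) from the bone marrow of male mice aged 8 weeks, with 1 array each: MSCs at day 0, and cultures at day 3 and day 21 of induction. Induction was the addition of 50 μg/mL ascorbic acid, a cofactor of collagen maturation, and 10 mM beta-glycerophosphate, a phosphate source for mineral, and all groups were grown in αMEM with serum and antibiotics. The labels name no strain, do not say whether animals were pooled or whether the 3 cultures came from 1 isolation, and name no control culture kept without the additions.

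Semaphorins carry a sema domain and were first known as cues that steer growing axons. Class 3 members are secreted, classes 4 to 6 span the membrane, and Sema7a is held by a lipid anchor. Plexins are the signalling receptors, with an intracellular domain that switches off small GTPases of the Rap type, and neuropilins are co-receptors that bind class 3 semaphorins and also growth factors of the VEGF family. In mouse bone, Sema3a is known to restrain osteoclast formation and to favour osteoblasts, and Sema4d made by osteoclasts acts on Plxnb1 of osteoblasts.

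With 1 array per group no difference had a replicate check, and no p-value was computed. Values are the processed signal, a background-subtracted intensity in arbitrary units that cannot be compared between probes. Differences are log2 values, the later day minus the earlier day, after each array was divided by its 75th percentile, and ± gives the SD from the scanner software's error model, which covers the array only. The SD of a log2 difference between spots of 1 probe was 0.16 for day 3 against day 0, from 251 probes with 10 spots each. A gene counted as measured when both arrays of a comparison read its probe well above background, and as higher or lower past 2-fold. The arrays of day 21 and day 0 lay on 1 slide and that of day 3 on another, and in the comparisons with day 3 the slide and the day cannot be told apart. In a bulk culture, fewer cells of a type and less RNA per cell cannot be told apart.

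Of the 31 genes, 24 were above background on all 3 arrays, 4 on 1 or 2 arrays and 3 (Sema3g, Sema4d and Sema5b) on none. The day 0 array had 25 of them above background, the day 3 array 26 and the day 21 array 27. Among the 24, the highest of the 3 levels was at day 0 in 9 genes, at day 3 in 2 and at day 21 in 13. The lowest was at day 0 in 10, at day 3 in 7 and at day 21 in 7. Of the same 24, 13 passed 2-fold in at least 1 of the 3 comparisons and 11 in none. The shares of all genes with such a highest or lowest day, or past 2-fold in any comparison, were not computed. These counts therefore do not set the members apart from other genes.

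**Figure D1:**
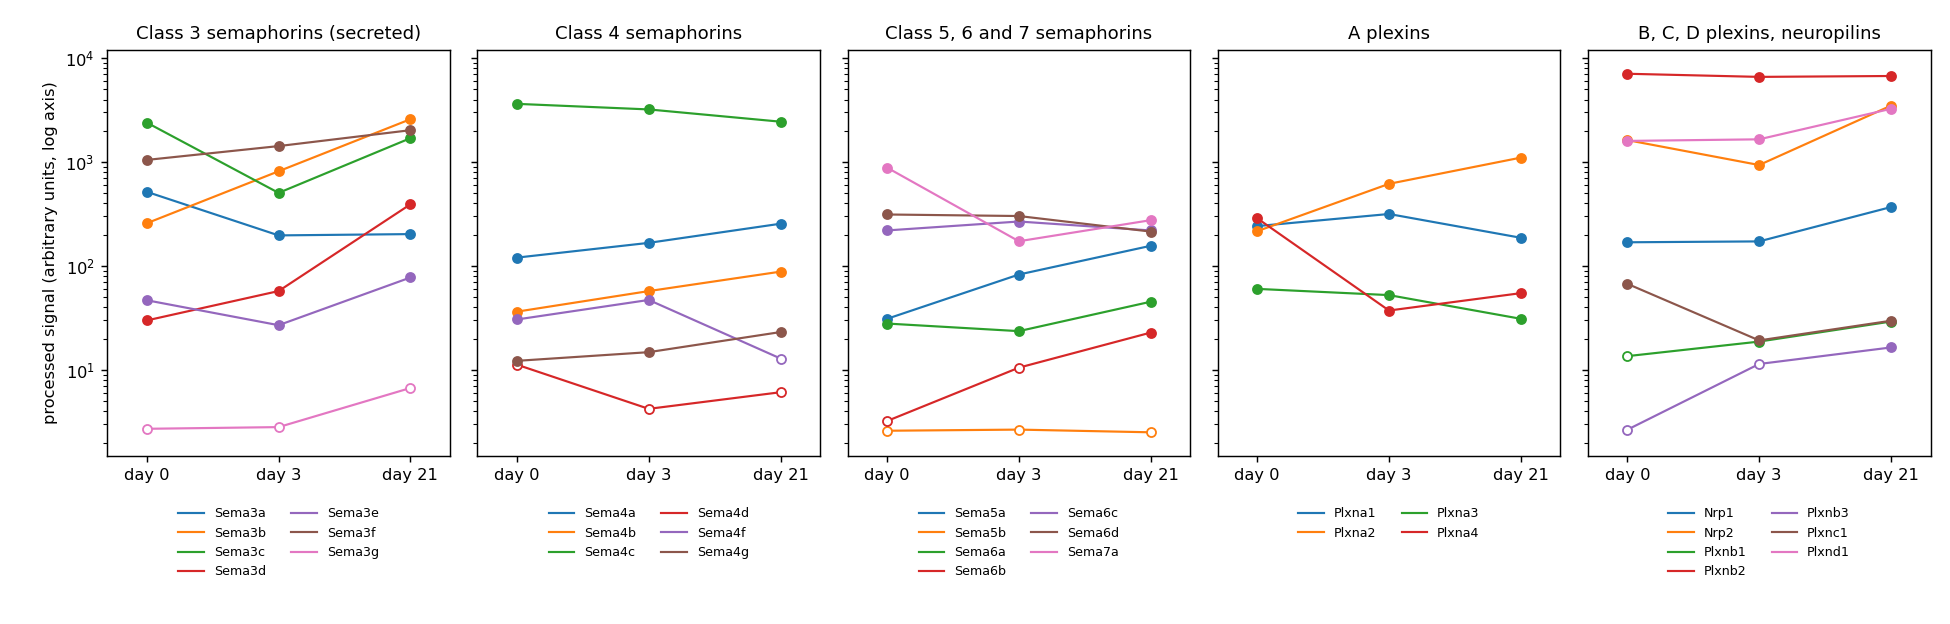
Processed signal (log axis, arbitrary units) of each gene's probe on the day 0, day 3 and day 21 arrays, 1 point per array, with open points where the probe was not well above background. Sema3b, Sema3d, Sema5a and Plxna2 climbed at each step, Sema3a, Sema7a and Plxna4 were highest at day 0, and Sema3c dipped at day 3. Heights of different genes cannot be compared.

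The secreted class 3 semaphorins ran from -1.50 to 3.56 for day 21 against day 0 over 6 measured genes. A wide spread was not particular to them, as the A plexins ran from -2.54 to 2.20 over 4 measured genes. For day 3 against day 0 class 3 ran from -2.27 to 1.64 and the A plexins from -2.97 to 1.49. Sema3b, a secreted ligand that acts through neuropilins, had a signal of 258 at day 0, 816 at day 3 and 2585 at day 21. Its difference from day 0 was 1.64 ± 0.20 at day 3 and 3.18 ± 0.20, or 9.05-fold, at day 21. Sema3d, a secreted ligand known for vascular patterning in mice, had a signal of 29.9 at day 0, 57.4 at day 3 and 392 at day 21. It passed 2-fold at day 21 only, with 0.92 ± 0.26 for day 3 against day 0 and 3.56 ± 0.24, or 11.8-fold, for day 21 against day 0. The step from day 3 to day 21 was 2.64 ± 0.22 for Sema3d and 1.54 ± 0.20 for Sema3b. These genes were higher on every later array than on every earlier one.

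Sema3a, which repels axons through Nrp1 and A plexins, went the other way. Its brighter probe had a signal of 517 at day 0, 197 at day 3 and 203 at day 21. The difference from day 0 was -1.41 ± 0.21 at day 3 and -1.50 ± 0.20 at day 21, and the later arrays differed from each other by -0.09. Its second probe gave 135, 40.2 and 39.1 on the same days, with differences of -1.77 and -1.94 from day 0. Both probes thus placed Sema3a past 2-fold lower on both induced arrays.

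Sema3c, known for its part in forming the cardiac outflow tract, was lowest at day 3. Its brighter probe had a signal of 2398 at day 0, 505 at day 3 and 1698 at day 21, and the second had 202, 46.8 and 173. Day 3 was lower than day 0 by -2.27 ± 0.20 and -2.13 ± 0.22 on these probes, and day 21 was higher than day 3 by 1.62 ± 0.20 and 1.76 ± 0.22. Day 21 against day 0 stayed within 2-fold, at -0.65 and -0.37. Sema3e, which can bind Plxnd1 without a neuropilin, had the same shape at a smaller size: 46.8 at day 0, 26.9 at day 3 and 77.5 at day 21. It differed by -0.82 ± 0.25 between day 3 and day 0 and by 1.40 ± 0.24 between day 21 and day 3. With the low point on the day 3 array, which had its own slide, the part of the slide in this shape was not tested.

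Sema3f, a ligand that prefers Nrp2, had a signal of 1048 at day 0, 1425 at day 3 and 2027 at day 21, and its 0.80 ± 0.20 for day 21 against day 0 was within 2-fold. Sema3g, a ligand known from endothelium, was not above background on any array, with signals of 2.71, 2.82 and 6.70.

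Of these genes, Sema3d, Sema3a, Sema3e and Sema3c lie in this order on chromosome 5, with 0, 3 and 15 protein-coding genes between neighbours, and Sema3b and Sema3f lie on chromosome 9 with 3 between them. The chromosome 5 genes differed from each other in time course: 1 was higher on each later day, 1 lower on both later days and 2 lowest at day 3. Their promoters are shown because they belong to neighbours that moved differently. Each line gives the 250 bases before the transcript start in RefSeq (GRCm38.p6), 5′ to 3′. For Sema3a this is the 1 start in the RefSeq promoter table. Capitals mark matches, on either strand, to the TATA box TATAAA, the GC box GGGCGG, the Runx core TGTGGT or the E box CANNTG.
Sema3d, chr5:12382916-12383165, + strand: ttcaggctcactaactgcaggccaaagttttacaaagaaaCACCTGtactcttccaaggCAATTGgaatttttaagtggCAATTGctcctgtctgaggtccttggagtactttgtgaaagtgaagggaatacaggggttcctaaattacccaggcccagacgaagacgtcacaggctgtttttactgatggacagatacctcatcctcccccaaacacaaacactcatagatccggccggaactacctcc
Sema3a, chr5:13396534-13396783, + strand: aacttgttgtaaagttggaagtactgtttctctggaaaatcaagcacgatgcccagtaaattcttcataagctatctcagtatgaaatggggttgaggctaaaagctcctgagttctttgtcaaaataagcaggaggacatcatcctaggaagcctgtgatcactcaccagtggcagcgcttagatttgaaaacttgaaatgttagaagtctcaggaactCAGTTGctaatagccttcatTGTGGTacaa
Sema3e, chr5:14025026-14025275, + strand: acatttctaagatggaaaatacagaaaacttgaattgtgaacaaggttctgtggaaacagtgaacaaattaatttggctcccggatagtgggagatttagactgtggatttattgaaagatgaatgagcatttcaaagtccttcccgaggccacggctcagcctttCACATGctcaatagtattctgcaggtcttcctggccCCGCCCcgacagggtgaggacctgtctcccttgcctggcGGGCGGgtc
Sema3c, chr5:17574566-17574815, + strand: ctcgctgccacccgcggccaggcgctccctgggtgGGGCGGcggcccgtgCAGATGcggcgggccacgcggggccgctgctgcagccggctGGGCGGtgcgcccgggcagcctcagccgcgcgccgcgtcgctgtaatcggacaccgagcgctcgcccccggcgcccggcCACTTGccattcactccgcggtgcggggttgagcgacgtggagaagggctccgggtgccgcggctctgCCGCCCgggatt
None of the 4 windows held TATAAA, which 12.4% of all 32851 promoter windows of this length held. Sema3c held GGGCGG 3 times and Sema3e 2 times, against 32.7% of all windows with at least 1 match. Sema3a held TGTGGT once, against 14% of all windows. CANNTG was present in all 4, 3 times in Sema3d, 2 times in Sema3c and once each in Sema3a and Sema3e, and in 66.2% of all windows. The Sema3c window had 39 CG dinucleotides and 78.4% G or C, the Sema3e window 7 and 48.0%, the Sema3d window 4 and 46.8%, and the Sema3a window 2 and 40.8%, beside a median of 6 and 52.4% over all windows. Such matches describe the letters and are not evidence of binding.

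The measured members of the membrane-bound class 4 had a narrower range than class 3. For day 3 against day 0 they ran from -0.20 to 0.64, and for day 21 against day 0 from -0.72 to 1.13. At day 3 against day 0, 0 of 5 passed 2-fold, where 7.73% of all measured genes were higher and 7.85% lower. At day 21 against day 0, 1 of 4 was higher and 0 lower, where 12.8% were higher and 16.8% lower. Sema4f, above background on 1 of these arrays, was lower by a bound given below, as were 25.2% of such genes. Sema4a, best known from immune cells, had a signal of 120 at day 0, 167 at day 3 and 255 at day 21, and Sema4b had 36.3, 57.3 and 88.2. Of these, Sema4b was just past 2-fold at day 21 against day 0 (1.13 ± 0.23) and Sema4a just short of it (0.94 ± 0.21). Sema4g, which binds Plxnb2, was dim, with 12.2 at day 0, 14.8 at day 3 and 23.1 at day 21, and differed by 0.77 ± 0.37 for day 21 against day 0. Sema4c, which also binds Plxnb2, moved the opposite way at a bright signal of 3632 at day 0, 3210 at day 3 and 2446 at day 21. Its difference was -0.72 ± 0.20 for day 21 against day 0.

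Sema4f had 30.6 at day 0 and 47.1 at day 3, and was not above background at day 21, where its signal was 12.9. It was therefore at least 2.63-fold lower at day 21 than at day 0 and at least 4.0-fold lower than at day 3. Such a bound divides the bright value by the dim probe's value or by the lowest value above background on that array, whichever is greater. For Sema4f the dim probe's value was the greater. Its bounds are therefore plain differences, with error-model SDs of 0.38 against day 0 and 0.37 against day 3 in log2. Sema4d was not above background on any array, with signals of 11.2, 4.22 and 6.10.

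Sema5a, a membrane ligand with thrombospondin repeats that can attract or repel axons, was the remaining semaphorin past 2-fold higher. Its signal read 31.0 at day 0, 82.8 at day 3 and 156 at day 21. The difference from day 0 was 1.40 ± 0.23 at day 3 and 2.19 ± 0.23, or 4.55-fold, at day 21. Sema5b was not above background, with signals of at most 2.66 on both of its probes.

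Class 6 semaphorins, membrane ligands of A plexins, stayed within 2-fold in all 3 measured members. Most of all measured genes did so too. For day 3 against day 0, 7.73% of them were higher and 7.85% lower. The shares were 12.8% and 16.8% for day 21 against day 0, and 7.75% and 7.11% for day 21 against day 3. Sema6a, a ligand of Plxna2 and Plxna4, had 27.9 at day 0, 23.6 at day 3 and 45.3 at day 21. Sema6c had 219.8, 268 and 219.7 on these days, and the brighter probe of Sema6d, a ligand of Plxna1, had 313, 302 and 214. The largest of their differences for day 21 against day 0 was -0.69 ± 0.21, in Sema6d. Sema6b was above background at day 21 alone, at 22.9, with 3.22 at day 0 and 10.5 at day 3, so its day 21 level was at least 2.02-fold that of day 0 and at least 1.98-fold that of day 3.

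Sema7a, which signals through Plxnc1 and through integrins with the Itgb1 chain, was brightest before induction. Its signal read 884 at day 0, 173 at day 3 and 276 at day 21. The difference from day 0 was -2.37 ± 0.21, or 5.18-fold lower, at day 3 and -1.83 ± 0.20 at day 21. Its receptor Plxnc1 was also lower on both induced arrays, with signals of 67.4 at day 0, 19.2 at day 3 and 29.7 at day 21 and differences from day 0 of -1.83 ± 0.30 and -1.33 ± 0.25. The second Plxnc1 probe was not above background on any array. Itgb1, named here after its values were seen, had 4643 at day 0, 2200 at day 3 and 2436 at day 21, and differed from day 0 by -1.10 and -1.08. The integrin chain Itga1, also placed here after its values were seen, had 164 at day 0, 103 at day 3 and 509 at day 21. It differed from day 0 by -0.70 at day 3, the same direction as Itgb1, and by 1.48 at day 21, the opposite direction.

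Of the A plexins, receptors that join neuropilins to bind class 3 ligands, 1 of 4 was higher and 2 were lower at day 21 than at day 0, where 12.8% of all measured genes were higher and 16.8% lower. Plxna2, which also binds class 6 ligands directly, had a signal of 216 at day 0, 617 at day 3 and 1103 at day 21. Its difference from day 0 was 1.49 ± 0.20 at day 3 and 2.20 ± 0.20, or 4.61-fold, at day 21. Plxna4, a receptor of sensory and sympathetic neurons, had 288 at day 0, 37.3 at day 3 and 54.8 at day 21. With -2.97 ± 0.23 for day 3 against day 0, or 7.82-fold lower, it had the lowest difference of all 25 measured members, and it was at -2.54 ± 0.22 for day 21 against day 0. Its second probe was at most 2.65 on every array and not above background, so the Plxna4 values rest on 1 of 2 probes.

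Plxna3 had 60.2 at day 0, 52.5 at day 3 and 31.0 at day 21, and was past 2-fold lower at day 21 than at day 0 (-1.10 ± 0.23) but not at day 3 (-0.22 ± 0.22). Plxna1, which has a known part in osteoclast formation in mice, had 242 at day 0, 316 at day 3 and 187 at day 21, and stayed within 2-fold in all 3 comparisons.

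The B plexins are the receptors of class 4 ligands. Plxnb2 was bright and level, with 7077 at day 0, 6602 at day 3 and 6733 at day 21, and its differences lay between -0.22 and -0.10. Plxnb1, the Sema4d receptor, had 13.6 at day 0, not above background, 18.7 at day 3 and 29.2 at day 21. By a bound its day 21 level was at least 1.94-fold that of day 0. This bound is the plain difference, 0.96 ± 0.38 in log2. Plxnb3, a receptor of Sema5a, had 2.66, 11.4 and 16.4 and was above background at day 21 alone, at least 1.46-fold higher than at day 0.

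Of Plxnd1 and the neuropilins, only Nrp2 passed 2-fold, for day 21 against day 3. Plxnd1, an endothelial guidance receptor, had 1598 at day 0, 1655 at day 3 and 3254 at day 21 on its brighter probe, and 121, 110 and 224 on the other. Nrp1, the co-receptor of Sema3a and of VEGF-A, had 169 at day 0, 172 at day 3 and 369 at day 21. For day 21 against day 0 Plxnd1 differed by 0.88 ± 0.20 and Nrp1 by 0.98 ± 0.21, and for day 21 against day 3 by 0.85 and 0.97, all short of 2-fold.

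Nrp2, the co-receptor that Sema3f prefers, had 1626 at day 0, 936 at day 3 and 3490 at day 21 on its brighter probe. It was past 2-fold higher at day 21 than at day 3 (1.77 ± 0.20), or 3.41-fold. Against day 0 its probes disagreed in size: 0.95 on the brighter and 1.75 on the other, whose signals were 250, 226 and 928. The probes carry different RefSeq transcript accessions of Nrp2. This 0.79 was the widest gap among the 12 comparisons possible in the 4 genes with a pair of probes above background throughout, whose median gap was 0.17.

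**Figure D2:**
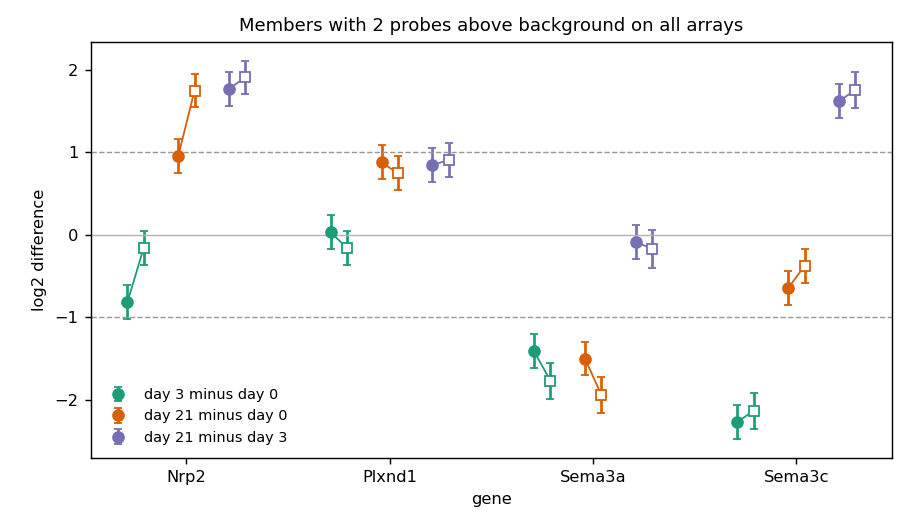
Log2 differences of Nrp2, Plxnd1, Sema3a and Sema3c on their brighter probe (filled circles) and other probe (open squares), with error-model SDs. Colours give the comparison, and dashed lines mark 2-fold. The pairs lie close together except for Nrp2 against day 0.

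Set against day 0, the day 3 array had 3 of 25 measured members higher (Sema3b, Plxna2 and Sema5a) and 5 lower (Plxna4, Sema7a, Sema3c, Plxnc1 and Sema3a). That is 12% higher and 20.0% lower, where 7.73% of all 12455 measured genes were higher and 7.85% lower. The members' median was 0.01, against -0.08 over all measured genes. The only member above background on 1 of these arrays, Plxnb1, did not reach a bound of 2-fold, as 26.6% of such genes did upwards and 16.0% downwards. Just outside the 2-fold rule lay Sema3d (0.92) and Sema3e (-0.82). Under scaling to spike-in RNA, which moved the median of all genes to -0.74, 0 of 25 members were higher and 7 lower, and the members' median was -0.65. Over all measured genes 3.73% were higher and 31.9% lower under that scaling, so the members' share of lower genes was not above the background there.

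At day 21 against day 0, 5 of 24 measured members were higher (Sema3d, Sema3b, Plxna2, Sema5a and Sema4b) and 5 lower (Plxna4, Sema7a, Sema3a, Plxnc1 and Plxna3). Each is 20.8%, where 12.8% of all 12387 measured genes were higher and 16.8% lower. The members' median was 0.57, against -0.21 over all measured genes. Of 4 members above background on 1 array, 1 was higher by a bound (Sema6b) and 1 lower (Sema4f), where 36.3% of such genes were higher and 25.2% lower. Several members lay close to the rule, so this split moved with the scaling: it was 11 higher and 4 lower with percentile scaling over detected spots alone, 9 and 4 without scaling, 6 and 3 after normexp and quantile normalization, and 4 and 7 with spike-in scaling. The shares over all measured genes moved too, to 16.7% higher and 11.2% lower, 14.8% and 13.3%, 10.5% and 9.11%, and 9.36% and 28.8% in the same order of settings.

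At day 21 against day 3, 5 of 25 measured members were higher (Sema3d, Nrp2, Sema3c, Sema3b and Sema3e) and 0 lower, which is 20.0% and 0%. Over all 12739 measured genes 7.75% were higher and 7.11% lower. The members' median was 0.51, against -0.10 over all measured genes. Of the 5 higher genes 4 were class 3 semaphorins, out of 6 measured, and the other was the neuropilin Nrp2. Whether these ligands act through Nrp2 was not tested. By a bound 0 of 3 members were higher and 1 was lower (Sema4f), where 23.9% of such genes were higher and 21.7% lower. The comparisons of day 21 with day 0 and with day 3 share the day 21 array. No test of these shares was possible, and members of 1 family are not replicates of a condition. The family was also chosen with earlier results of these data known, which limits what these shares can show.

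**Figure D3:**
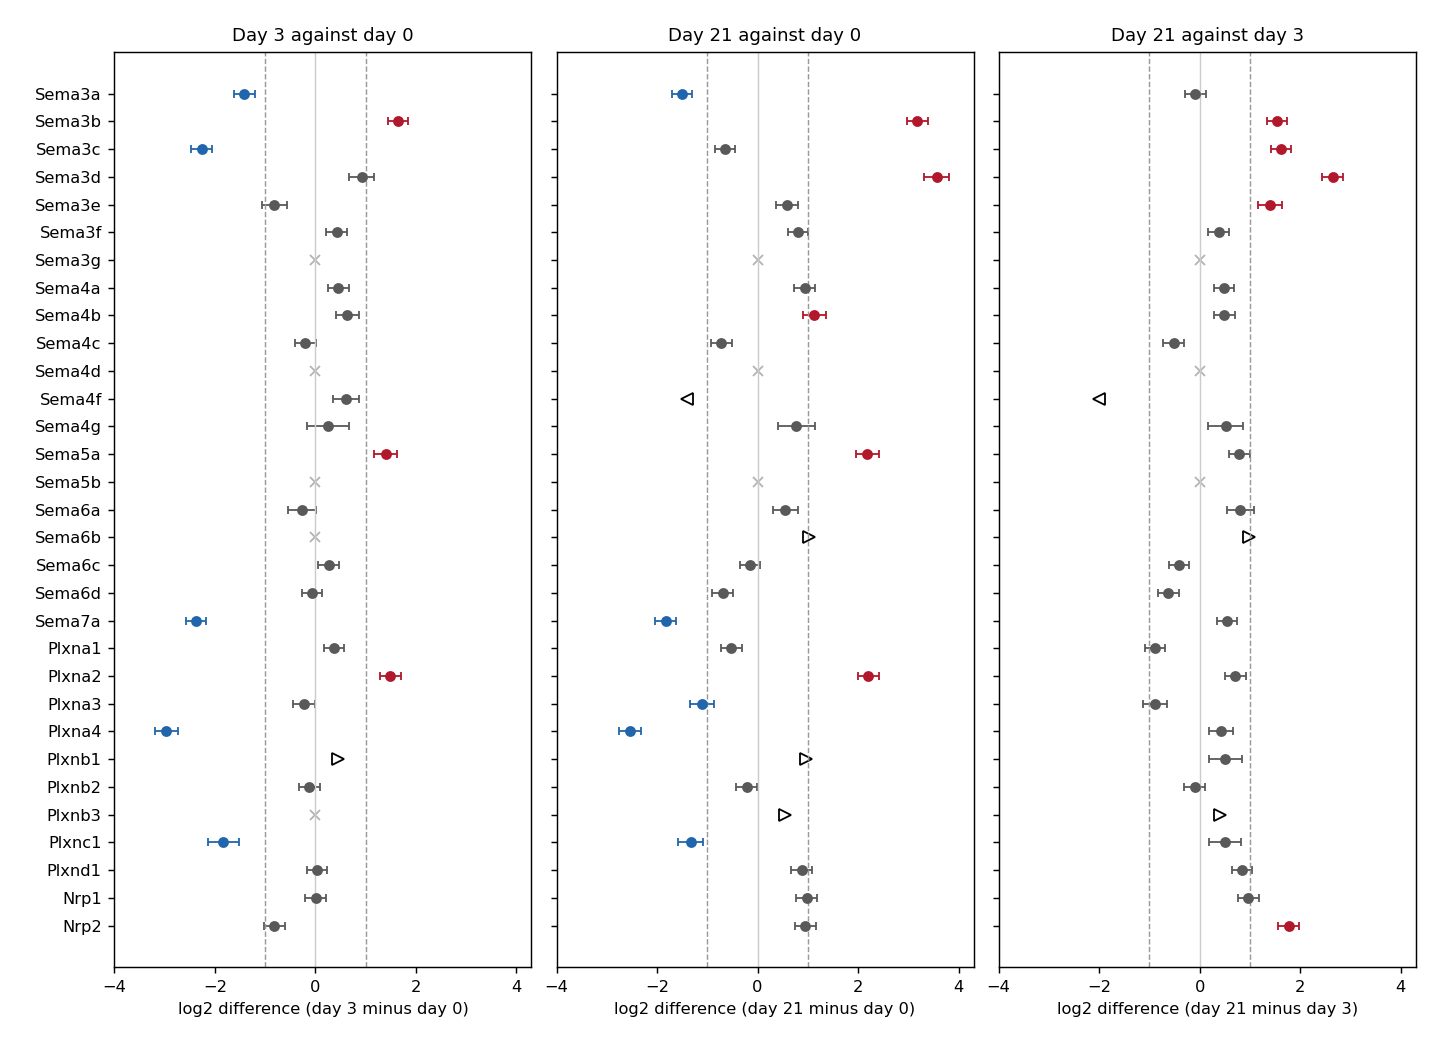
Log2 difference of each gene in the 3 comparisons, with error-model SDs. Red and blue points are past 2-fold higher and lower (dashed lines), triangles are bounds for genes above background on 1 array, and crosses are genes above background on neither. Red points outnumber blue only for day 21 against day 3, where class 3 semaphorins and Nrp2 are past the line.

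**Figure D4:**
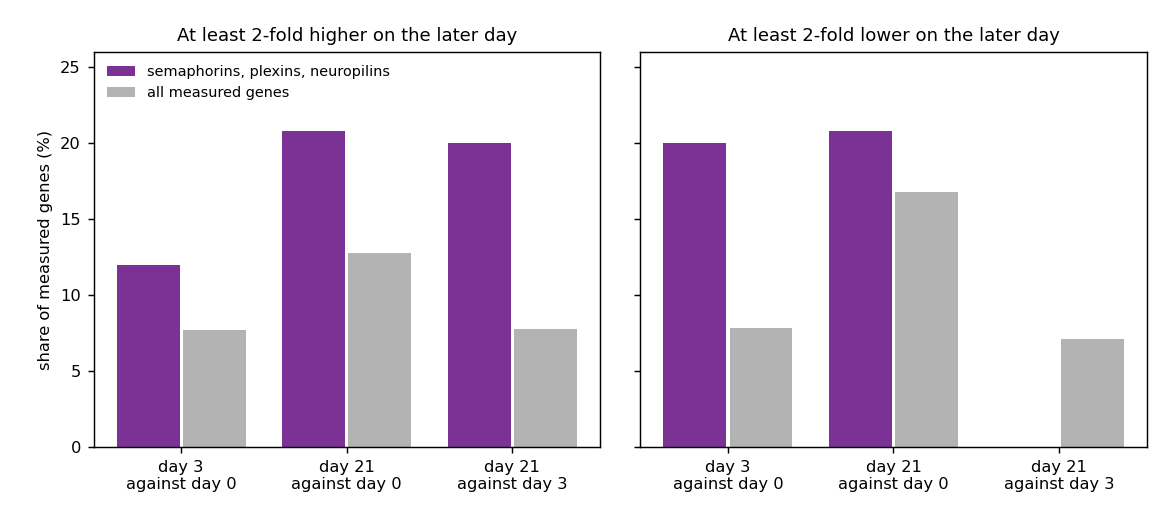
Share of measured genes at least 2-fold higher (left) or lower (right) on the later day, for the 24 or 25 measured members beside all measured genes. The members' bar is 0 for lower genes at day 21 against day 3, where the bar of all genes is 7.11%.

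Partners of the pathway were read from lists made by function, with earlier results of these data known. Among the VEGF-family ligands that neuropilins also bind, 2 of 5 measured genes were higher and 2 lower at day 21 than at day 0, where 12.8% of all measured genes were higher and 16.8% lower. Vegfd had a signal of 1756 at day 0, 14697 at day 3 and 35792 at day 21 and differed by 4.20 for day 21 against day 0. Vegfc differed by 2.59 and Vegfa, a ligand of Nrp1, by -2.13. Of 15 co-receptors of plexins and neuropilins, 12 were measured, 3 higher and 2 lower for day 21 against day 0, the lower ones near the share of all genes. The largest differences were those of Mst1r, a receptor kinase (4.13), the VEGF receptor Flt1 (2.78) and the integrin chain Itga1 (1.48). The VEGF receptor Kdr differed by -0.32.

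Proteins that carry plexin signals inside the cell were read against the same background, 12.8% higher and 16.8% lower for day 21 against day 0. Of 18 mediators, all measured, 0 were higher and 5 lower (median -0.49). The largest differences were in Crmp1 (-4.04) and Dpysl3 (-2.94), collapsin response mediator proteins that bind tubulin, and in the kinase Fyn (-2.96). Of 17 measured plexin GTPases and exchange factors, 1 was higher and 3 lower, which is near the share of all genes for lower ones, with a median of -0.52. Rnd1, a GTPase that binds plexins, had 3028 at day 0, 303 at day 3 and 312 at day 21 and differed by -3.42 for day 21 against day 0, Rras2 by -2.12 and Rnd2 by 1.67. At day 3 against day 0, 0 mediators were higher and 4 lower (median -0.53), and 0 of 17 GTPases and exchange factors were higher and 3 lower (median -0.31). All measured genes then had 7.73% higher, 7.85% lower and a median of -0.08, and for day 21 against day 0 their median was -0.21. Of 4 furin-type proteases, a type of enzyme that cleaves class 3 semaphorins, 1 was higher: Pcsk5, at 2.67, with Pcsk6 at -0.42 and Furin at -0.21.

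The labelled cell types were checked against markers. All 10 marrow stromal markers were above background on every array. Of 8 osteoblast markers on the array, 4 were above background at day 0, then 6 at day 3 and 7 at day 21. Their summed signal, in units of the array's 75th percentile, came to 362 at day 0, 389 at day 3 and 293 at day 21, and Col1a1, the brightest of them, differed by -0.47 for day 21 against day 0. Of the osteoblast markers, Runx2 was dim at 18.7 at day 0, 20.7 at day 3 and 16.0 at day 21, and Sp7 was not above background on any array. Alpl was at least 29.1-fold, Ibsp at least 63.7-fold and Dmp1 at least 3.20-fold higher at day 21 than at day 0, with Bglap2 at 3.58 and Spp1 at 2.74. Adipocyte and chondrocyte markers were read in the same way. All 8 adipocyte markers were above background at day 3 and day 21, and 4 at day 0, and their summed signal came to 7.92 at day 0, 37.4 at day 3 and 1205 at day 21. The same sum over 8 chondrocyte markers came to 71.8 at day 0, 74.8 at day 3 and 346 at day 21. Comp, with the highest signal of them at day 21, differed by 6.67 for day 21 against day 0. Prg4 differed by 6.16, Sox9 by 1.24, Acan by -0.97 and Col2a1 by -0.32. Of 5 measured, 3 were higher and 0 lower, where 12.8% of all measured genes were higher and 16.8% lower. By a bound 2 of 3 were higher, where 36.3% of such genes were. Of 10 Schwann cell and neuron markers, Nefl was not above background on any array, and the sum came to 68.6, 55.8 and 113.0 on these days. The part of such cells in the semaphorin and plexin values was not tested.

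Plxnd1 and Sema3g are known from endothelium and Sema4d from osteoclasts and lymphocytes, so markers of these cells were read too. Of 9 endothelial markers the day 0 array read 4 above background and each later array 5, among them Kdr, at 3588, 4902 and 3173. The markers Cdh5, Tie1 and Cldn5 were not above background on any array, and the endothelial sum came to 24.9 at day 0, 32.7 at day 3 and 19.6 at day 21. Of 10 macrophage and osteoclast markers on the array 7 were above background on each array. Ptprc, Adgre1 and Tyrobp were above background on none, and the sum came to 97.9 at day 0, 127 at day 3 and 161 at day 21, with Acp5 higher by 3.57 at day 21 than at day 0. Of 9 lymphocyte markers 6 were not above background on any array, and the sum came to 5.88, 8.58 and 5.26 on these days.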

How the data were processed

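RNA of 3 groups was measured on 1 Agilent 1-colour array each. The deposited scanner files hold spot intensity made by Agilent Feature Extraction, version 10.10.1.1 per the file headers and another version, 12.0, per the submitters' processing notes. Per the file headers, the processed intensity had local background and spatial trends removed array by array, with no scaling between arrays. The deposited value table held the same intensity, with a largest relative difference of 0.

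Each array's log2 processed signal was reduced by its 75th percentile over 59305 non-control spots (172 at day 0, 175 at day 3, 191 at day 21). Spots marked as outliers were left out, and spots of a probe were averaged. Well above background means the software's mark on at least 50% of a probe's spots. No non-control spot was saturated. Probes were named by transcript accession through RefSeq (GRCm38.p6): 26755 matched 1 gene, 0 several and 28909 none. The probe with the highest mean stood for a gene.

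There were no replicates, so 1 fixed rule of 2-fold was used, with all genes as background. The members, lists and rules were chosen with earlier results of these data known. All 31 members are given. From the partner and other guidance lists, the 3 measured genes with the largest difference for day 21 against day 0 are named, with bounds past 2-fold. Itgb1, Kdr and the marker genes were named after their values were seen. The number of arrays limits the precision. Normexp correction (limma 3.58.1, offset 50) used the median spot signal in place of the mean signal that had been planned. One marker gene is not reported here by name. The calls were tested on simulated data with known changes and only the noise between spots of 1 probe. That simulation held no variation between cultures or slides, so it does not measure how well the calls would repeat. Python 3.11.15 was used.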

Additional observations from a re-analysis of the deposited data

How the results depend on the processing

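No paired analysis was possible because each group holds 1 array, and for the same reason no array was left out and no slide block was fitted. Under the 10 alternatives of scaling, background correction, probe choice and filtering, no member past 2-fold changed direction, and 15 of 23 differences past 2-fold in the 3 comparisons stayed past it in all of them. The exceptions were, for day 3 against day 0, Plxna2, Sema3b, Sema5a and Plxnc1, for day 21 against day 0 Plxna3, Plxnc1 and Sema4b, and for day 21 against day 3 Sema3e. Counts of members are given below, and the cause of their shifts was not tested except where fewer or more genes passed by construction.

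For day 3 against day 0, members higher numbered 0 with spike-in scaling, 5 without a filter on dim probes, 6 at 1.5-fold and 1 at 3-fold (3.73, 9.39, 14.9 and 3.99% of all genes), and the median was -0.65 with spike-in scaling and -0.06 with the median over a gene's probes. For day 21 against day 0, members higher numbered 11 with the 75th percentile of detected spots, 9 without scaling, 8 without the filter and 11 at 1.5-fold (16.7, 14.8, 13.7 and 19.9% of all genes). Members lower numbered 3 after normexp with percentile or quantile scaling, 8 at 1.5-fold and 2 at 3-fold (11.4, 9.11, 31.8 and 6.77% of all genes). The median was 0.81 with the 75th percentile of detected spots, 0.22 with spike-ins (all genes -0.56), and 0.11 and 0.17 after normexp with percentile and quantile scaling. For day 21 against day 3, members higher numbered 9 with the 75th percentile of detected spots, 10 with spike-ins, 10 at 1.5-fold and 3 at 3-fold (10.9, 12.6, 15.2 and 3.41% of all genes), and members lower 1 without the filter and 3 at 1.5-fold (8.33 and 19.6%). The median was 0.73 with the 75th percentile of detected spots, 0.83 with spike-ins (all genes 0.21), and 0.26 and 0.32 after normexp with percentile and quantile scaling. Dim members such as Sema4g, Sema6b, Plxnb1 and Plxnb3 lie near the lowest signal above background (10.2, 10.5 and 8.24 on the day 0, 3 and 21 arrays).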

Other observations

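Other guidance families were read in the same way. Of 41 Slit, Robo, netrin, ephrin and Eph genes and their receptors on the array, 30 were measured for day 21 against day 0, with 7 higher and 6 lower, where 12.8% of all measured genes were higher and 16.8% lower. Their median was 0.03, beside -0.21 over all measured genes. Slit3, a secreted ligand of Robo receptors, had a signal of 609 at day 0, 1439 at day 3 and 5672 at day 21 and differed by 3.07 for day 21 against day 0, with Robo2 at 1.75 and Robo3 at -1.84. Of the netrins, Ntn3 differed by 2.96 and Ntn1 by 1.59, and the netrin receptor Unc5b by -3.02, with 11127 at day 0, 1960 at day 3 and 1515 at day 21. By a bound, Ntng1 was at least 4.40-fold and Ntn4 at least 2.40-fold higher at day 21 than at day 0. Of the Eph receptors, Epha3 differed by 2.62, Epha2 by -2.30 and Epha1 by -2.04, and the ligand Efnb3 was at least 2.25-fold higher by a bound. Whether these families differ from the semaphorins was not tested.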
